A study of Mus musculus with 16 samples.

Results

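WT E14tg2a mouse embryonic stem cells at day 2 of induction toward epiblast-like cells were compared with WT cells in 2i medium. The comparison takes 4 of the 16 sequencing libraries of the series, chosen by their labels, with 2 libraries of WT day 2 cells and 2 of WT cells in 2i. Of 21455 table entries with a gene symbol, 21450 could be tested. Per the labels' protocols, day 2 cells were plated on fibronectin in N2B27, a serum-free medium, with bFGF at 12 ng/mL. Cells in 2i were grown on gelatin in N2B27 with LIF at 1000 U/mL, the MEK inhibitor PD0325901 at 1 µM and the GSK3β inhibitor CHIR99021 at 3 µM. Both groups are of the E14tg2a line, and no genetic change is named for either. The labels name no clone, batch or separate culture, so the p-values reflect no more than the spread among these samples, which may be technical. One further comparison uses 2 libraries labelled DKO at day 2 and 2 labelled DKO in 2i. By elimination, the label DKO was matched to the series' line in which Prdm14 was knocked out in cis.

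Naive embryonic stem cells resemble the epiblast before implantation, and epiblast-like cells resemble it shortly after. LIF acts through its receptor and the kinase JAK1 on the transcription factor STAT3. PD0325901 blocks the kinase that activates ERK, while bFGF activates FGF receptors and through them ERK. CHIR99021 blocks the kinase that marks β-catenin for destruction, so that β-catenin accumulates and acts with TCF and LEF factors on Wnt target genes. The step from 2i to day 2 therefore takes away LIF and both inhibitors, adds bFGF and changes the surface, all at once. The contribution of each cannot be told apart in these libraries.

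Promoter windows of 3 genes are shown. Rarb and Cyp26a1, members of the retinoic acid list, are shown because both hold the same rare repeat, and Sp5, a Wnt target, because it had the largest fall among genes with a mean of at least 100 in a group. Sequences are from RefSeq on GRCm38.p6, read on the strand of the gene from 250 bases before to 50 bases after a transcript start, with positions counted from that start. The windows are chr14:16575427-16575726 on the minus strand for Rarb, chr19:37697558-37697857 on the plus strand for Cyp26a1 and chr2:70474673-70474972 on the plus strand for Sp5. The Rarb window, the only one RefSeq gives here for the gene, belongs to a start inside the gene, whose annotated outer end lies at chr14:16819156. Capitals mark letters that match a motif on either strand. For Rarb and Cyp26a1 it is GTTCA followed, after any 5 bases, by AGTTCA, and for Sp5 it is CTTTGA. The first is a direct repeat of the kind bound by retinoic acid receptors, and the second is the core of TCF and LEF sites.
Rarb: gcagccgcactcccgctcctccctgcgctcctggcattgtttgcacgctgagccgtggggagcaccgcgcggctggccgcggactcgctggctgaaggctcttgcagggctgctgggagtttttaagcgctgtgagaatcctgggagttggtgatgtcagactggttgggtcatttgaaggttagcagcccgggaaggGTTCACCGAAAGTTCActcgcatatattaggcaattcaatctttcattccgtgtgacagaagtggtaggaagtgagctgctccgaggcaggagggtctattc
Cyp26a1: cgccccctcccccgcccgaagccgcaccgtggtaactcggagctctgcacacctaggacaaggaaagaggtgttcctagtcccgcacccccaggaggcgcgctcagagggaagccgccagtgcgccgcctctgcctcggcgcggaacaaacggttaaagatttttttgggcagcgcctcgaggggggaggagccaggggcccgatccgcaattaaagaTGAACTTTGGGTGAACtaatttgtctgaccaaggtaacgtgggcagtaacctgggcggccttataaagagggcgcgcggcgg
Sp5: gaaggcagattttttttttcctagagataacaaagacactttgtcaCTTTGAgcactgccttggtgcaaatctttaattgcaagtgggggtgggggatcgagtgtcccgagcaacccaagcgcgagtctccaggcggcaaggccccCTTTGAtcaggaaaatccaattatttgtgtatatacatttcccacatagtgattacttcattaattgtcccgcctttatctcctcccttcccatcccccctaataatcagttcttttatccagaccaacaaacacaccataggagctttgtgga
In Rarb the repeat lies at positions -52 to -37, and in Cyp26a1 it lies on the other strand at -32 to -17. It occurred in 11 of 32851 promoter windows (0.033%). These belong to 11 genes, of which 4 were tested and 2 were higher at day 2, Rarb and Cyp26a1. The Sp5 window holds CTTTGA at -204 to -199 and at -104 to -99. This shorter motif occurred in 5257 windows (16%) and 2 or more times in 568 (1.73%). Of 1857 tested genes with it, 257 were higher and 257 lower at day 2. Over all genes tested, 12.7% were higher and 10.8% lower. Of 15102 protein-coding genes tested, 2399 were higher and 1996 lower. Whether the motif goes with either direction was not tested. A match describes letters in the window and is not evidence of binding.

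The libraries held 23581582 and 25086238 recovered reads at day 2, against 21218131 and 31392901 in 2i. Replicates correlated at 0.974 (WT day 2) and 0.972 (WT 2i), and libraries of different groups at 0.930 to 0.936, as Pearson's r of log2(value + 1) across all genes tested, which are not independent replicates. Values are normalized read counts given as day 2 replicates 1 and 2, then 2i replicates 1 and 2. Changes are log2 fold changes of day 2 over 2i from limma, with p adjusted over all genes by the Benjamini-Hochberg method. The label of embryonic stem cells was checked against 6 markers, whose summed level was 20407 and 18674 at day 2, against 17609 and 18998 in 2i. One of them, Pou5f1, the central pluripotency factor also called Oct4, went against the label in both groups. Its entry held 11.9 and 3.77 at day 2, against 13.2 and 11.01 in 2i (log2 -0.74, SE 0.8, adjusted p = 0.57). Gm19553, a noncoding transcript that overlaps 14.1% of its exonic bases on the opposite strand, held 6354 and 6456 at day 2, against 9092 and 8187 in 2i (-0.43, SE 0.098, adjusted p = 0.0046). The strand setting of the counting is not given in the sources used here, so reads in the overlap cannot be told apart. Most exonic bases of Pou5f1 lie outside that overlap, and why its entry is low was not tested. Pou5f1 was therefore not read. Of 3688 coding genes with an opposite-strand partner, coding or noncoding, 3 had a noncoding partner above 500 and over 20 times their own level. Coding partners were not checked in this way.

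By day 2, most STAT3 response genes fell, and more ERK response and feedback genes rose than fell. Wnt targets moved both ways, and retinoic acid response genes and Hoxa and Hoxb genes rose. In bulk RNA, fewer cells of a type and less RNA per cell cannot be told apart. In all, 5027 of 21450 genes passed an adjusted p of 0.05 (23.4%), with 2718 higher (12.7%) and 2309 lower (10.8%). Among protein-coding genes alone 29.1% were called, and the list counts below are to be read beside that share. The higher count was 1799 without WT day 2 replicate 1 and 1776 without replicate 2. The median log2 change over all tested genes was 0.03. Of the called genes, 1519 rose and 1124 fell at least 2-fold by the fitted change, and 94 rose and 60 fell at least 16-fold. Genes called higher took 9.40% and 9.88% of the reads on named entries at day 2, against 5.56% and 5.47% in 2i. Genes called lower took 7.39% and 7.61% at day 2, against 12.4% and 12.7% in 2i.

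**Figure D1:**
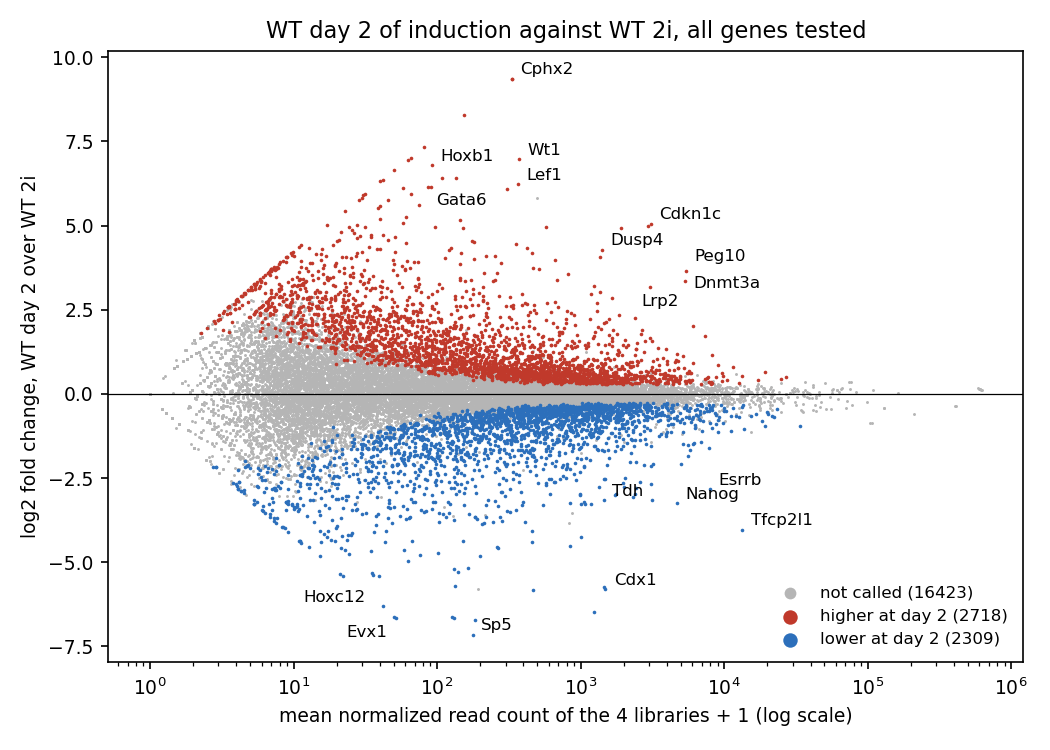
Log2 fold change of WT day 2 over WT 2i against the mean normalized read count of the 4 libraries plus 1 (log scale), with 1 point per gene. Red points are the 2718 genes called higher at day 2, blue points the 2309 called lower and grey points the rest. Cphx2 lies at the top and Sp5 at the bottom.

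LIF and STAT3 response genes were mostly lower at day 2. Of 14 tested, 9 fell and 2 rose, where 10.8% of all genes fell and 12.7% rose, and the list median was -0.76 against 0.03 over all genes. Stat3 itself held 346 and 312 at day 2, against 1568 and 1748 in 2i (log2 -2.33, SE 0.11, adjusted p = 4.6e-10). Socs3, which encodes the feedback inhibitor of the receptor complex and lies at chr11:117966079-117970047, held 87.7 and 70.7 at day 2, against 562 and 559 in 2i (-2.82, SE 0.32, adjusted p = 9.8e-06). In neither gene did the groups overlap, as in 60.9% of all genes tested. Bcl3, a coactivator of NF-κB factors, held 15.2 and 11.3 at day 2, against 268 and 311 in 2i, a 20.5-fold fall (adjusted p = 3.9e-05). Tfcp2l1, a naive factor that STAT3 activates, held 1591 and 1489 at day 2, against 24040 and 26329 in 2i (-4.03, SE 0.10, adjusted p = 2.6e-12). Klf4, another STAT3 target, held 215 and 162 at day 2, against 1706 and 1957 in 2i (-3.28, SE 0.14, adjusted p = 2.6e-10).

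The receptor genes Lifr and Osmr were called lower, and Il6st was not called. Lifr, the LIF receptor, fell 1.30-fold (adjusted p = 0.012). Il6st, which encodes the shared receptor chain gp130, held 1249 and 1332 at day 2, against 1417 and 1432 in 2i (adjusted p = 0.41). Jak1 held 778 and 957 at day 2, against 1006 and 1057 in 2i (adjusted p = 0.18). Against the direction of the list, the kinase gene Pim1 rose 1.73-fold (adjusted p = 0.00023), although a transcript on the opposite strand overlaps 14.5% of its exonic bases. Gbx2, a homeobox gene, held 4108 and 3832 at day 2, against 822 and 854 in 2i (2.24, SE 0.089, adjusted p = 9.5e-11). A noncoding transcript on the other strand overlaps 43.5% of its exonic bases.

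Wnt and β-catenin target genes split. Of 19 tested, 5 fell and 6 rose, with a median of -0.16. Sp5, a zinc finger gene that β-catenin activates directly, was nearly silent at day 2, with 2.16 and 0.942, against 319 and 386 in 2i. From its 3 day 2 reads, the level in 2i was 227 times that at day 2 (95% exact interval 77.6 to 1100, counting error only; fitted log2 -7.15, adjusted p = 8.3e-06). Axin2, a negative feedback gene and a standard readout of the pathway, held 231 and 206 at day 2, against 577 and 529 in 2i (-1.34, SE 0.16, adjusted p = 1.9e-05). Cdx1, a caudal-type homeobox gene, held 55.2 and 48.1 at day 2, against 2582 and 3275 in 2i (-5.79, SE 0.29, adjusted p = 1.1e-09). For these 3 genes every day 2 library lay below every 2i library. Groups did not overlap, in either direction, in 60.9% of all genes tested. Tbx3 fell 4.44-fold and Tcf7, a TCF factor, 1.51-fold.

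The 6 targets that rose were led by Lef1, which encodes a TCF family factor and is also a formative gene. It held 709 and 730 at day 2, against 7.20 and 10.2 in 2i (6.23, SE 0.27, adjusted p = 2.7e-10). A gene model on the opposite strand overlaps 13.7% of its exonic bases. Fzd7, a Wnt receptor, held 4730 and 4490 at day 2, against 1372 and 1540 in 2i (1.66, SE 0.094, adjusted p = 4.3e-09). The other rises were in Sp8 (4.12-fold), Nkd2 (4.05-fold), Tnfrsf19 (2.13-fold) and Dkk1, a secreted Wnt inhibitor (5.32-fold, adjusted p = 0.013). Several usual readouts were not called. Notum, which an antisense gene overlaps over 29.4% of its exonic bases, held 429 and 418 at day 2, against 443 and 512 in 2i, and Znrf3 held 728 and 663 at day 2, against 671 and 896 in 2i.

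ERK response and feedback genes rose more often than they fell. Of 20 tested, 11 rose and 2 fell, with a median of 0.75, and the rises numbered 7 without WT 2i replicate 1. Dusp4, a nuclear phosphatase that switches off ERK, lies at chr8:34807297-34819894 and held 2884 and 2462 at day 2, against 125 and 147 in 2i (4.29, SE 0.11, adjusted p = 3.0e-12). Dusp6, its cytoplasmic counterpart, held 2768 and 2752 at day 2, against 784 and 829 in 2i (1.78, SE 0.097, adjusted p = 3.1e-09). Neither gene's groups overlapped, as in 60.9% of all genes tested. Myc, an immediate response gene that GSK3 and STAT3 also regulate, held 2507 and 2328 at day 2, against 832 and 968 in 2i (1.43, SE 0.12, adjusted p = 3.6e-07). The Sprouty gene Spry4 rose 2.96-fold, Spred1 2.05-fold and the early response gene Egr1 3.28-fold. Fos had the lowest change of the list (log2 -1.65) and was not called.

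The ETS factor genes that usually follow FGF signalling fell or were not called. Etv5 held 6069 and 5688 at day 2, against 7907 and 9217 in 2i (-0.54, SE 0.1, adjusted p = 0.0013). Etv4 held 3836 and 3403 at day 2, against 3520 and 4322 in 2i (adjusted p = 0.61). Il17rd, an inhibitor of FGF receptor signalling, fell 1.57-fold (adjusted p = 0.00019). Among 13 FGF ligands and receptors, 3 rose and 1 fell (30.8% called, near the 29.1% of all protein-coding genes). Fgf4, the ligand that embryonic stem cells make, held 732 and 798 at day 2, against 1911 and 1830 in 2i (-1.29, SE 0.16, adjusted p = 2.1e-05). Fgfr2 held 844 and 785 at day 2, against 319 and 247 in 2i (1.53, SE 0.13, adjusted p = 2.9e-07), while Fgfr1 held 1606 and 1407 at day 2, against 1294 and 1322 in 2i (adjusted p = 0.23). Fgf5, the usual mark of epiblast-like cells, held 16.2 and 17.9 at day 2, against 16.8 and 11.9 in 2i (0.25, SE 0.57, adjusted p = 0.80), and its groups overlapped.

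**Figure D2:**
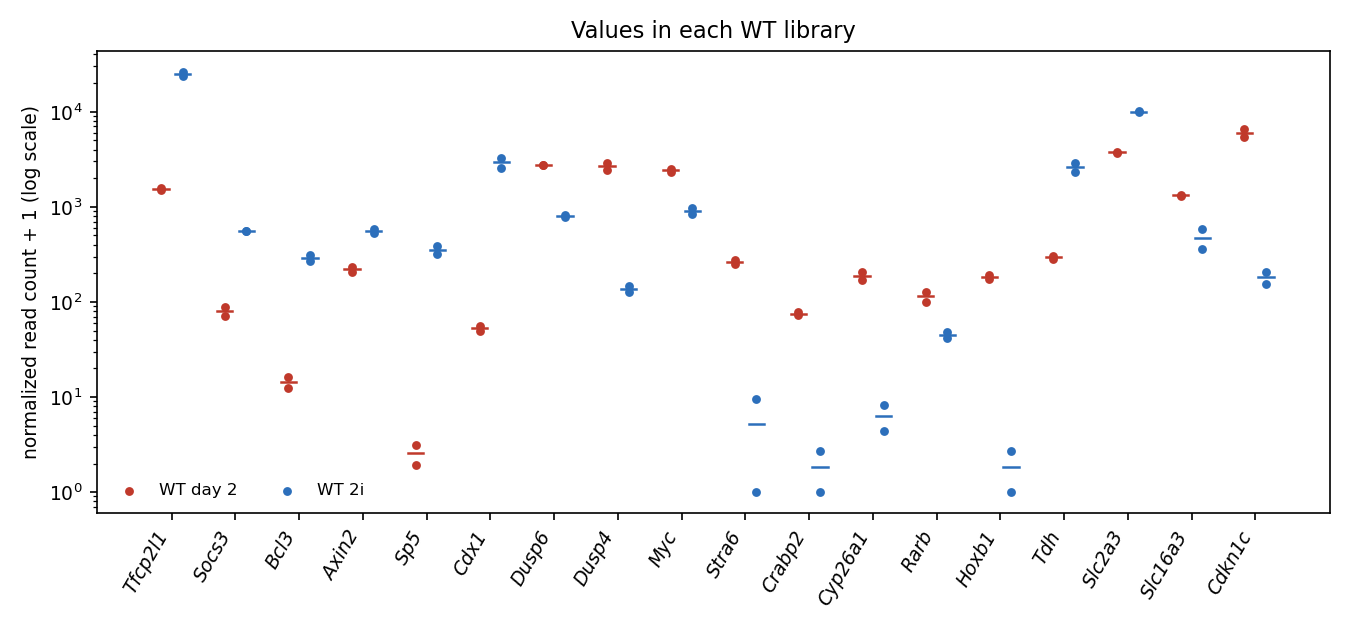
Normalized read count plus 1 (log scale) in each WT library for 18 genes of the LIF, Wnt, ERK, retinoic acid, metabolic and imprinted groups. Points are libraries (red, day 2; blue, 2i) and bars their means. In every gene plotted both libraries of one group lie above both of the other, as in 60.9% of all genes tested. The genes were chosen with earlier results of these data known, so this is no result for them. Sp5 at day 2 and Crabp2 and Hoxb1 in 2i lie near 0.

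Retinoic acid is made from retinol and acts on nuclear receptors, and genes for its uptake, binding, breakdown and receptors rose. Of 14 tested, 9 rose and 1 fell, with a median of 1.2. The uptake receptor gene Stra6 held 275 and 252 at day 2, against 0 and 8.47 in 2i (6.42, SE 0.66, adjusted p = 2.9e-06). Crabp2, which carries retinoic acid to its receptors, held 71.4 and 77.3 at day 2, against 0 and 1.69 in 2i. From its 2 reads in 2i the day 2 level was 87.8 times higher (95% exact interval 24.3 to 725; adjusted p = 3.6e-07). Cyp26a1, which encodes the enzyme that degrades retinoic acid and is its classical target, held 205 and 168 at day 2, against 7.20 and 3.39 in 2i (4.96, SE 0.46, adjusted p = 1.1e-06). Each of these 3 genes had both day 2 libraries above both 2i libraries, where 60.9% of all genes tested did not overlap in either direction.

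All 3 receptor genes rose. Rarg held 11710 and 10794 at day 2, against 4850 and 5325 in 2i (1.15, SE 0.096, adjusted p = 3.6e-07), and Rara rose 1.77-fold. Rarb held 128 and 99.9 at day 2, against 40.8 and 47.4 in 2i (1.34, SE 0.21, adjusted p = 0.0002), although Top2b on the opposite strand overlaps 34.1% of its exonic bases. Dhrs3, a retinal reductase gene induced by retinoic acid, rose 3.27-fold, Cyp26b1 8.16-fold and the retinol dehydrogenase gene Rdh10 1.98-fold. The synthesis enzyme gene Aldh1a2 was not called, with 51.9 and 60.3 at day 2, against 32.4 and 55.9 in 2i, nor was Aldh1a3. Crabp1 was the member that fell, with 119 and 71.6 at day 2, against 238 and 209 in 2i (-1.26, SE 0.24, adjusted p = 0.00096). Stra8, a meiotic entry gene named for its induction by retinoic acid and chosen after its values were seen, held 5574 and 5936 at day 2, against 162 and 199 in 2i (4.99, SE 0.21, adjusted p = 2.1e-10).

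Hox genes encode homeodomain factors that give position along the body axis, and they divided by cluster. Of 39 tested, 13 rose and 11 fell, with a median of -0.02. The division was seen in the values and is given as a description. In the Hoxa cluster 6 of 11 rose and 0 fell, and in the Hoxb cluster 7 of 10 rose and 0 fell. In the Hoxc cluster 0 rose and 9 of 9 fell, and in the Hoxd cluster 0 rose and 2 of 9 fell. The number of Hox genes called lower was 7 without WT day 2 replicate 1, without WT 2i replicate 2, with limma-voom or with only the 4 libraries. Summed over the cluster, Hoxb genes held 799 and 683 at day 2, against 110 and 150 in 2i, and Hoxc genes held 41.1 and 52.8 at day 2, against 491 and 543 in 2i.

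Hoxb1, a hindbrain gene under direct control of retinoic acid at chr11:96365752-96368256, held 191 and 173 at day 2, against 0 and 1.69 in 2i, which is 214 times higher from 2 reads in 2i (95% exact interval 59.3 to 1770; adjusted p = 8.1e-06). Hoxb2 held 198 and 158 at day 2, against 2.40 and 0.847 in 2i, 110 times higher (37.5 to 532; adjusted p = 2.1e-08). Hoxb3 had no read in 2i and was at least 25.6-fold higher, with 76.8 and 80.1 at day 2. The antisense gene Hoxb3os overlaps 27.3% of the exonic bases of Hoxb2 and 52.9% of those of Hoxb3. Hoxa5 held 367 and 353 at day 2, against 61.2 and 44.9 in 2i (2.75, SE 0.28, adjusted p = 2.3e-06). At the other end, Hoxc13 held 22.7 and 13.2 at day 2, against 220 and 268 in 2i (-3.73, SE 0.4, adjusted p = 4.8e-06). Hoxc12 had no read at day 2 and was at least 26.8-fold lower than in 2i, where it held 104 and 58.5.

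**Figure D3:**
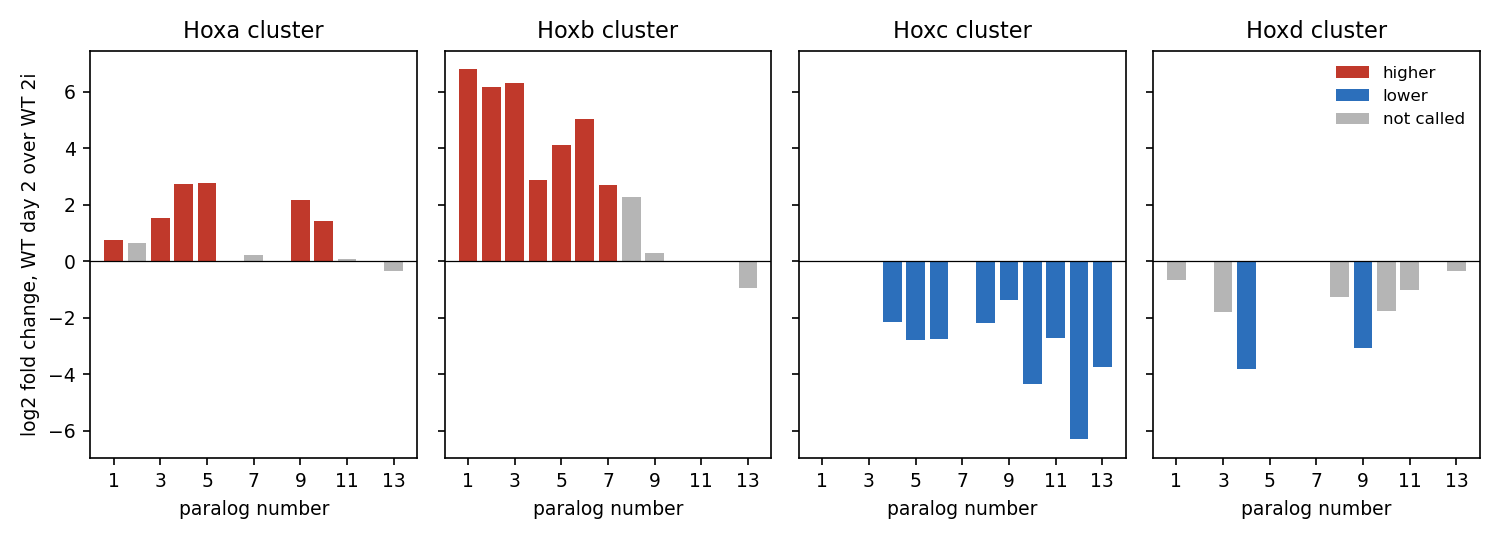
Log2 fold change of WT day 2 over WT 2i for each tested Hox gene, in 1 panel per cluster, ordered by paralog number, which runs from anterior to posterior genes. Red bars were called higher, blue bars lower and grey bars were not called. The 7 called Hoxb bars all point up and the 9 Hoxc bars all point down.

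Nodal and Activin pathway genes moved both ways, with 5 of 15 higher and 8 lower (median -0.50). Nodal, the ligand, fell 1.57-fold (adjusted p = 0.007), its coreceptor gene Tdgf1 held 960 and 1086 at day 2, against 3689 and 3192 in 2i (-1.75, SE 0.16, adjusted p = 9.7e-07), and Inhbb, an Activin subunit, held 310 and 271 at day 2, against 1431 and 1570 in 2i (-2.37, SE 0.13, adjusted p = 2.3e-09). The inhibitor gene Smad7 held 514 and 480 at day 2, against 3921 and 4332 in 2i (-3.05, SE 0.11, adjusted p = 4.9e-11). The antagonist Lefty1 rose 2.76-fold while Lefty2 held 252 and 302 at day 2, against 492 and 549 in 2i (adjusted p = 0.27). The corepressor gene Skil rose 3.75-fold.

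In the BMP list 6 of 16 fell and 1 rose (median -0.52). The ligand gene Bmp4 held 48.7 and 49.95 at day 2, against 479 and 434 in 2i (-3.18, SE 0.3, adjusted p = 1.4e-06). Of the 4 Id genes, which BMP signals induce and which block differentiation factors, 3 were lower. Whether these falls depend on Bmp4 was not tested. Id3 held 61.7 and 15.1 at day 2, against 497 and 401 in 2i (-3.82, SE 0.4, adjusted p = 4.2e-06), Id1 fell 4.50-fold and Id4 5.99-fold. Id2 was higher (1.28, SE 0.35, adjusted p = 0.013), a call lost without WT day 2 replicate 1 (adjusted p = 0.11), without WT 2i replicate 2 (0.077) or with only the 4 libraries (0.057). The receptor gene Bmpr1a was not called, with 906 and 996 at day 2, against 918 and 911 in 2i, nor was Bmpr2.

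Among Notch pathway genes, 4 of 13 rose and 3 fell (median -0.24). Dll1, a ligand gene, held 321 and 346 at day 2, against 9.60 and 18.6 in 2i (4.53, SE 0.31, adjusted p = 3.7e-08), although a gene on the opposite strand overlaps 20.5% of its exonic bases. Notch3 rose 1.84-fold, while Notch4 held 77.9 and 93.3 at day 2, against 455 and 530 in 2i (-2.51, SE 0.22, adjusted p = 4.9e-07). Hes1, a repressor gene that Notch and other signals induce, held 236 and 196 at day 2, against 881 and 928 in 2i (-2.07, SE 0.19, adjusted p = 8.6e-07).

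**Figure D4:**
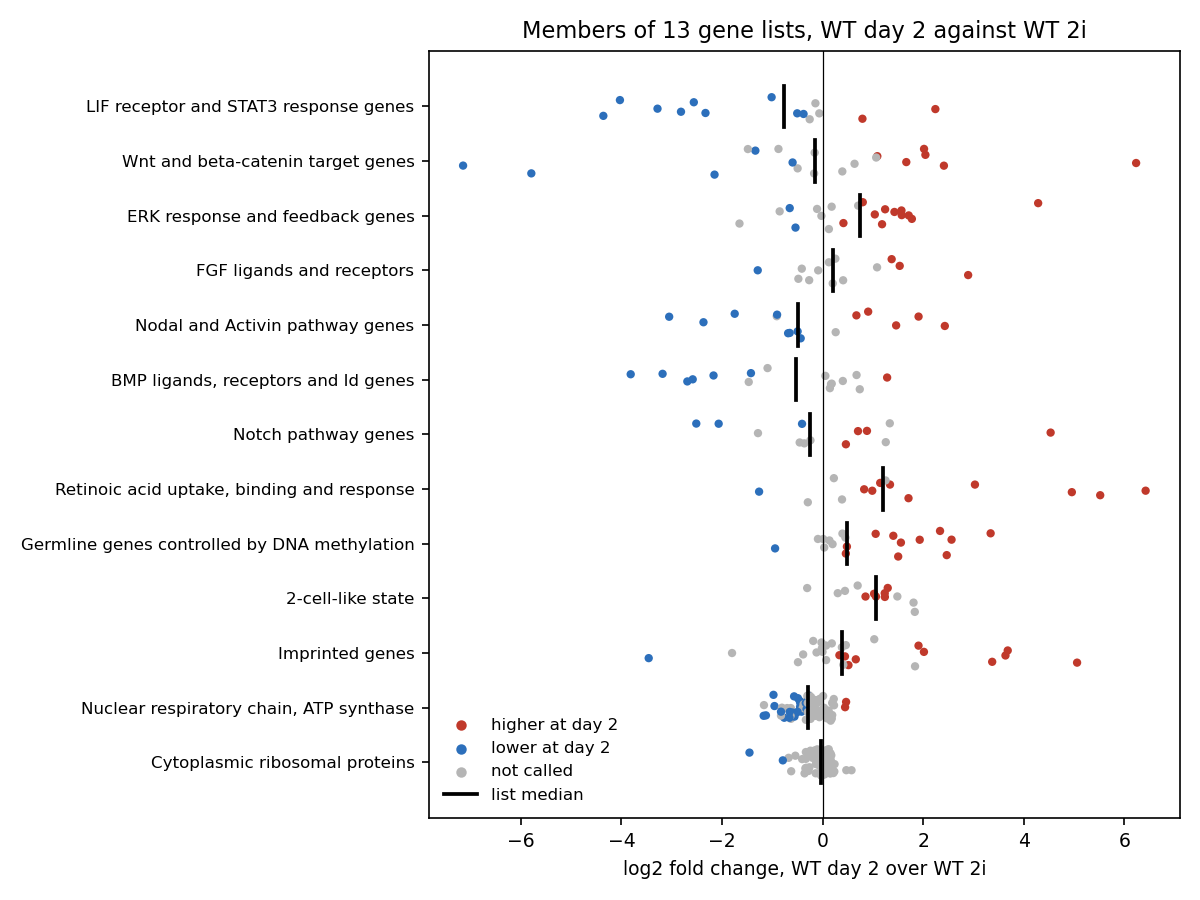
Log2 fold change of WT day 2 over WT 2i for the tested members of 13 gene lists. Points are genes (red, higher at day 2; blue, lower; grey, not called), shifted at random in height within a list, and bars are list medians. The LIF list lies mostly left of 0, the retinoic acid list mostly right, and the ribosomal protein list around 0.

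Of 18 naive pluripotency genes, 16 fell and 1 rose (median -1.84), and of 19 formative and early epiblast genes, 16 rose and 0 fell (median 1.67). Nanog, a core factor of the naive state, held 838 and 958 at day 2, against 8547 and 8336 in 2i (-3.24, SE 0.095, adjusted p = 7.0e-12). Esrrb, a nuclear receptor of the naive network, held 2012 and 1930 at day 2, against 13163 and 14719 in 2i (-2.82, SE 0.099, adjusted p = 3.4e-11). Beside the factors above, Pou3f1 held 943 and 808 at day 2, against 46.8 and 47.4 in 2i, and Tcf15 held 1490 and 1226 at day 2, against 256 and 230 in 2i. Otx2, which directs the formative network, held 182 and 156 at day 2, against 24.01 and 26.3 in 2i (2.70, SE 0.44, adjusted p = 0.00034). Grhl2, which opens epithelial enhancers, rose 8.90-fold. The 3 formative members not called were Etv4, Sox3 and Fgf5. General pluripotency genes split, with 6 of 16 higher and 4 lower. Utf1 rose 6.69-fold, while Sox2 held 3005 and 2667 at day 2, against 3736 and 3745 in 2i (-0.40, SE 0.098, adjusted p = 0.0074), a call lost without WT day 2 replicate 2 (adjusted p = 0.094) and with scaling to named entries (0.054).

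Primitive endoderm is the extraembryonic layer that covers the epiblast, and 13 of 20 of its genes rose while 3 fell (median 1.92). All 5 of its defining markers, Gata4, Gata6, Sox17, Sox7 and Pdgfra, were called higher. Their summed level was 1511 and 1225 at day 2, against 63.6 and 106 in 2i, where Sox7 was at 0 in both libraries. Gata4 held 129 and 164 at day 2, against 33.6 and 44.9 in 2i (1.88, SE 0.26, adjusted p = 6.9e-05). Whether these markers rose in some cells or in all was not tested. Sox17 held 416 and 263 at day 2, against 4.80 and 35.6 in 2i (4.51, SE 0.56, adjusted p = 2.3e-05), and a gene model on the opposite strand overlaps 16.8% of its exonic bases. The endocytic receptor genes of the visceral endoderm rose as well. Lrp2 held 5454 and 5428 at day 2, against 565 and 646 in 2i (3.17, SE 0.14, adjusted p = 3.1e-10), and Cubn held 161 and 175 at day 2, against 4.80 and 0 in 2i. The 3 members that fell were Lama1 (1.79-fold), Sparc (2.28-fold), both matrix protein genes, and Apoe, at 3470 and 2918 at day 2, against 8165 and 9609 in 2i (-1.48, SE 0.11, adjusted p = 8.9e-08).

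Markers of other lineages gave mixed pictures. Of 16 primitive streak and early mesoderm genes, 5 fell and 3 rose (median -0.33), and the streak gene Eomes held 208 and 216 at day 2, against 1234 and 1208 in 2i (-2.52, SE 0.17, adjusted p = 2.3e-08). Nkx1-2, a caudal stem zone gene, held 15.2 and 15.1 at day 2, against 822 and 1011 in 2i (-5.82, SE 0.51, adjusted p = 6.0e-07), with an opposite-strand overlap of 16.6%. T, the main streak gene, was not analysed here. Wnt8a and Lhx1 rose, the second with 43.3 and 37.7 at day 2, against 1.2 and 0 in 2i. Of 13 neuroectoderm genes, 4 rose and 1 fell, with Sox1 at 931 and 710 at day 2, against 134 and 170 in 2i (2.42, SE 0.19, adjusted p = 1.4e-07), and Pax6 4.89-fold higher. Ncam1 was the member that fell (-1.67, SE 0.13, adjusted p = 1.6e-07), and Nes and Tubb3 were not called.

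In the trophectoderm list 4 of 14 rose and 4 fell, but the rises numbered 0 without WT day 2 replicate 1, 2 without WT 2i replicate 1, and 1 with limma-voom or with only the 4 libraries. Ascl2 was higher (2.38, SE 0.57, adjusted p = 0.006), a call lost without WT day 2 replicate 1 or WT 2i replicate 2 (adjusted p = 0.066 each). Tead4, which acts at the top of that lineage, held 145 and 130 at day 2, against 1017 and 1171 in 2i (-2.98, SE 0.13, adjusted p = 4.0e-10). Fibroblast and feeder markers summed to 85.5 and 117 at day 2, against 258 and 287 in 2i, for the 5 of 8 defining markers in the table, of which Dcn was at 0 in 2i and was called higher while Pdgfrb was called lower. The call of Dcn was lost without WT day 2 replicate 2. Of 11 genes of primordial germ cell specification, 6 fell and 1, Lin28a, rose. Kit held 1267 and 1283 at day 2, against 3121 and 3302 in 2i (-1.33, SE 0.086, adjusted p = 2.0e-08), and Ifitm3 fell 3.44-fold.

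Genes of the DNA methylation machinery moved both ways, with 7 of 14 higher and 4 lower. The falls numbered 2 without WT day 2 replicate 1 and 1 without WT day 2 replicate 2 or WT 2i replicate 2. The de novo enzyme gene Dnmt3b held 2591 and 2439 at day 2, against 816 and 766 in 2i, and Dnmt3a held 9760 and 9551 at day 2, against 960 and 940 in 2i. The maintenance enzyme gene Dnmt1 was not called, with 9662 and 9825 at day 2, against 9401 and 9286 in 2i, while its partner gene Uhrf1 fell 1.31-fold (adjusted p = 0.0092). Gadd45g, a stress response gene with a reported role in demethylation, held 140 and 153 at day 2, against 2.40 and 1.69 in 2i, 71.4 times higher from 4 reads (95% exact interval 27.9 to 262; adjusted p = 1.2e-07). Gadd45b moved the other way, with a 2.63-fold fall.

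Germline genes that promoter methylation keeps silent in later cells mostly rose, with 11 of 19 higher and 1 lower. The rises numbered 7 without WT day 2 replicate 1 and 6 without replicate 2. Piwil2, which encodes a piRNA-binding protein, held 221 and 238 at day 2, against 64.8 and 54.2 in 2i (1.93, SE 0.24, adjusted p = 1.9e-05), and the germ cell helicase gene Ddx4 held 173 and 155 at day 2, against 61.2 and 61.0 in 2i (1.41, SE 0.22, adjusted p = 0.00023). Dazl was not called, with 117 and 158 at day 2, against 137 and 112 in 2i. Brdt was lower (-0.95, SE 0.26, adjusted p = 0.014), a call lost without either WT day 2 library or without WT 2i replicate 1 (adjusted p = 0.056 to 0.087).

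All 6 called genes of the 2-cell-like list were Zscan4 paralogs, whose reads may be shared. They were 1.81-fold to 2.45-fold higher, with Zscan4c at 474 and 467 at day 2, against 211 and 173 in 2i (1.30, SE 0.22, adjusted p = 0.00044). Without a library the called members numbered 3 (WT day 2 replicate 1), 2 (WT day 2 replicate 2) or 2 (WT 2i replicate 2). The other 7 of 13, which include Zfp352 and Tcstv3, were not called. Among 12 Polycomb genes of the complex that methylates histone H3, 2 rose and 3 fell, or 1 each without WT 2i replicate 1 and with limma-voom. Jarid2, a recruiting subunit, held 11909 and 11455 at day 2, against 6177 and 6645 in 2i (0.87, SE 0.094, adjusted p = 5.6e-06). Epop and Mtf2 were lower by 1.42-fold and 1.34-fold, but both calls were lost without some libraries (adjusted p up to 0.099 for Epop and 0.15 for Mtf2). The call of Mtf2 was also lost with limma-voom (0.059), with scaling to named entries (0.069) and with scaling without mitochondrial and top 10 genes (0.054).

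Of 27 imprinted genes, 10 rose and 1 fell (median 0.38), and some of the rises were large. Cdkn1c, a maternally expressed cell cycle inhibitor gene at chr7:143458339-143461050, held 6576 and 5476 at day 2, against 155 and 207 in 2i (5.06, SE 0.19, adjusted p = 6.5e-11). A gene model on the opposite strand overlaps 30.7% of its exonic bases. Its neighbours Kcnq1ot1 and Phlda2 were not called. Kcnq1ot1 held 1464 and 1881 at day 2, against 1774 and 1556 in 2i (adjusted p = 1.0). Phlda2 held 112 and 101 at day 2, against 91.2 and 72.0 in 2i (adjusted p = 0.59). Ascl2, on the same chromosome at chr7:142966829-142969264, was called higher (2.38, adjusted p = 0.006), a call lost without single libraries. Peg10, a paternally expressed gene of retrotransposon origin, held 10237 and 9722 at day 2, against 783 and 821 in 2i (3.64, SE 0.16, adjusted p = 4.1e-10). H19 and Igf2, which share a control region, rose 12.8-fold and 10.4-fold, though an unnamed gene model covers 62.8% of the exonic bases of Igf2. Plagl1 was the imprinted gene that fell, with 64.9 and 52.8 at day 2, against 636 and 671 in 2i (-3.46, SE 0.21, adjusted p = 9.7e-09).

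Among metabolic genes, Tdh, the threonine dehydrogenase on which mouse embryonic stem cells depend, held 303 and 284 at day 2, against 2876 and 2345 in 2i (-3.14, SE 0.17, adjusted p = 2.4e-09). Gcat, which encodes the next enzyme of that route, held 3835 and 3302 at day 2, against 5963 and 6769 in 2i (-0.84, SE 0.12, adjusted p = 7.9e-05). A second entry annotated as Gcat overlaps 47.5% of its exonic bases. Gldc, part of the glycine cleavage system, rose 2.07-fold. Most of the serine and one-carbon enzymes were not called, since 3 of 17 genes in the list rose and 3 fell.

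Glycolysis genes exchanged members, with 6 of 27 higher and 8 lower (median -0.17). The glucose transporter gene Slc2a3 held 3670 and 3803 at day 2, against 9865 and 10125 in 2i (-1.42, SE 0.096, adjusted p = 3.1e-08), while Slc2a1, another transporter gene, held 6201 and 5880 at day 2, against 3106 and 3139 in 2i (0.95, SE 0.11, adjusted p = 8.3e-06). Aldoa fell 1.92-fold, Hk1 2.25-fold and Ldha 1.71-fold. Slc16a3, which exports lactate, held 1320 and 1313 at day 2, against 361 and 585 in 2i (1.52, SE 0.17, adjusted p = 7.7e-06). Pdk1, a pyruvate dehydrogenase kinase gene, rose 2.23-fold. Eno1 and Gapdh were not called, with Gapdh at 12870 and 11213 at day 2, against 11631 and 15657 in 2i.

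Of 80 nuclear genes of the respiratory chain and ATP synthase, 23 were lower and 2 higher (median -0.28), within a range of -1.17 to 0.47. The lower count was 10 without WT day 2 replicate 2 and 15 without WT 2i replicate 2. Atp5h held 1739 and 1505 at day 2, against 3461 and 2930 in 2i (-0.98, SE 0.15, adjusted p = 0.00023). Among 13 mitochondrially encoded genes 2 were lower and 1 higher (23.1% called, below the 29.1% of all protein-coding genes). Each of these calls was lost when any WT library was left out. Mitochondrial reads made up 1.17% to 1.18% of all recovered reads at day 2, against 1.10% to 1.32% in 2i. Of 76 cytoplasmic ribosomal protein genes 2 were lower and 0 higher, with a median of -0.02 and 5 lower with only the 4 libraries. Rps28 held 3563 and 2822 at day 2, against 11779 and 6414 in 2i (-1.45, SE 0.29, adjusted p = 0.0018), and the call of Rps26 was lost without WT day 2 replicate 2 or either 2i library.

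Of 22 sterol synthesis genes, 13 rose and 2 fell (median 0.43), or 1 fell without WT day 2 replicate 2 or WT 2i replicate 2. Lss, which encodes the enzyme that closes the sterol rings, held 3276 and 3362 at day 2, against 1796 and 1648 in 2i (0.95, SE 0.097, adjusted p = 3.1e-06). Insig1, a sterol sensor that is induced with the pathway, held 4525 and 4569 at day 2, against 2623 and 2406 in 2i (0.86, SE 0.087, adjusted p = 2.6e-06). Ebp went the other way, with 213 and 180 at day 2, against 553 and 595 in 2i (-1.55, SE 0.17, adjusted p = 7.7e-06). In fatty acid synthesis 3 of 12 rose and 2 fell, and the calls of Acaca and Scd1 were lost without single libraries. Of 15 amino acid transporter genes, 5 rose and 0 fell, or 3 without either WT day 2 library or WT 2i replicate 1. The 5 are 33.3% of the list, where 29.1% of all protein-coding genes were called. Slc7a7, a cationic amino acid transporter gene, held 1521 and 1628 at day 2, against 571 and 568 in 2i (1.47, SE 0.12, adjusted p = 3.5e-07).

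Matrix and integrin genes moved both ways. Of 19 basement membrane and integrin genes, 7 rose and 8 fell (median -0.08). The laminin gene Lamb1 held 2581 and 2636 at day 2, against 595 and 528 in 2i (2.22, SE 0.12, adjusted p = 2.3e-09), and the collagen IV genes Col4a1 and Col4a2 rose 2.84-fold and 3.03-fold. These 3 genes are also on the primitive endoderm list, whose 5 defining markers rose. Lama1, another laminin gene on both lists, held 783 and 650 at day 2, against 1173 and 1387 in 2i (-0.84, SE 0.14, adjusted p = 0.00047), and the part of endoderm cells in these results was not tested. Nid1, which links laminin to collagen IV, held 512 and 581 at day 2, against 3391 and 3446 in 2i (-2.65, SE 0.11, adjusted p = 2.6e-10). Itga5, a chain of the fibronectin receptor, fell 1.93-fold and Fn1, which encodes fibronectin, 1.59-fold, while Itga3 rose 2.52-fold.

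Neither main cadherin gene was called at day 2. Cdh1, the epithelial cadherin gene, held 6394 and 5870 at day 2, against 4870 and 5769 in 2i (0.21, SE 0.13, adjusted p = 0.29). Cdh2, the mesenchymal one, held 449 and 555 at day 2, against 300 and 399 in 2i (adjusted p = 0.061). Epcam held 858 and 770 at day 2, against 137 and 121 in 2i (2.65, SE 0.14, adjusted p = 2.3e-09). Krt8, a simple epithelial keratin gene, fell 4.68-fold and the repressor gene Zeb2 rose 3.35-fold. In that list of 21 genes, 5 rose and 4 fell, with 3 rises without WT day 2 replicate 1 or WT 2i replicate 1, and also with limma-voom or only the 4 libraries.

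Of 18 cell cycle entry genes, 6 fell and 4 rose. Ccnd2, a D-type cyclin gene, held 331 and 329 at day 2, against 712 and 734 in 2i (-1.13, SE 0.11, adjusted p = 1.6e-06), Ccnd3 fell 1.81-fold and Ccnd1 was not called. Cdk6, a kinase that binds these cyclins, held 235 and 303 at day 2, against 964 and 929 in 2i (-1.82, SE 0.14, adjusted p = 1.7e-07). Of 14 target genes of p53, 5 rose and 2 fell, with 3 higher and 0 lower without WT day 2 replicate 2 and 1 lower without either 2i library. Mdm2, which restrains p53, held 1598 and 1866 at day 2, against 890 and 831 in 2i (1.01, SE 0.11, adjusted p = 5.4e-06). Cdkn1a, the p53 target that encodes p21, held 1422 and 942 at day 2, against 4421 and 2615 in 2i (-1.55, SE 0.38, adjusted p = 0.0075), and its call was lost without WT day 2 replicate 2 (adjusted p = 0.09) or WT 2i replicate 1 (0.094).

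Lin28a, which blocks let-7 maturation, held 4347 and 4053 at day 2, against 1174 and 1100 in 2i (1.88, SE 0.11, adjusted p = 5.6e-09), and Lin28b rose 2.45-fold. In the Lin28 and let-7 list 4 of 11 rose and 3 fell, with Arid3a 3.18-fold lower. IGF binding protein genes rose in 3 cases of 9 genes, led by Igfbp4 (3.79-fold). That is 33.3% called, near the 29.1% of all protein-coding genes. Interferon and nucleic acid sensing genes moved both ways, with 3 of 12 higher and 4 lower. H2-K1, a major histocompatibility gene, held 624 and 782 at day 2, against 178 and 169 in 2i (2.00, SE 0.15, adjusted p = 1.1e-07), and the RNA sensor gene Ddx58 held 38.96 and 57.5 at day 2, against 245 and 267 in 2i (-2.41, SE 0.36, adjusted p = 0.00015). Prdm14, the gene altered elsewhere in the series, held 626 and 712 at day 2, against 1083 and 1096 in 2i (-0.71, SE 0.12, adjusted p = 0.00046). Of its 5 partner genes, Ehmt1 rose 1.42-fold and Cbfa2t2 fell 1.49-fold.

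The largest rises, taken among genes with a mean of at least 100 in a group, were in the homeobox genes Cphx2, Cphx3 and Cphx1. Cphx2, at chr14:26081516-26096127, held 621 and 698 at day 2 and had no read in 2i, at least 215-fold higher (adjusted p = 9.5e-11). Cphx3 gave nearly the same values, and reads of these near-identical paralogs may be shared. Car4, a carbonic anhydrase gene, held 161 and 159 at day 2 and none in 2i (at least 52.2-fold, adjusted p = 1.6e-09). Wt1, a zinc finger gene of kidney and gonad development, held 738 and 730 at day 2, against 1.2 and 14.4 in 2i (6.98, SE 0.54, adjusted p = 1.5e-07). Ntrk2, a neurotrophin receptor gene, held 124 and 123 at day 2 and none in 2i (at least 40.2-fold, adjusted p = 1.7e-08). Stra6, Lef1, Hoxb1 and Hoxb2 complete the 10.

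The largest falls after Sp5 were in Sh2d4b, which held 2.16 and 2.83 at day 2, against 384 and 342 in 2i, and in Evx1, a streak homeobox gene with no read at day 2, against 116 and 86.4 in 2i (at least 33.4-fold lower, adjusted p = 9.5e-05). Trpm1, a cation channel gene, held 0 and 5.65 at day 2, against 262 and 252 in 2i, and the homeobox gene Tlx2 held 5.41 and 0 at day 2, against 229 and 274 in 2i. Nkx1-2, Cdx1, Lrrc34 and Dmgdh, a mitochondrial dehydrogenase gene, were also among the 10. At day 4 of the same induction, Cphx2 was back at 31.3 and 25.3 and Sp5 stood at 12.95 and 16.3. Ntrk2 then held 358 and 321, Hoxb1 276 and 315, Stra6 1120 and 1162 and Wt1 584 and 563.

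The same step was measured in libraries labelled DKO, which share no library with the WT comparison. These held more Prdm14 than WT, with 1347 and 1273 at day 2 and 1803 and 1803 in 2i, so directions are those of libraries labelled DKO. There 4610 of 21450 genes were called (21.5%), with 2648 higher (12.3%) and 1962 lower (9.15%). Of genes called higher in WT, 90.1% had the same sign in DKO-labelled cells and 55.2% were called higher there, and these made up 56.7% of those called higher in DKO-labelled cells. Of genes called lower in WT, 87.9% had the same sign and 51.7% were called lower, which is 60.9% of those called lower in DKO-labelled cells. Among all genes tested, 51.9% had a positive and 47.6% a negative sign in DKO-labelled cells. The median change over genes called higher in WT was 1.15 in WT and 0.76 in DKO-labelled cells, and over genes called lower -0.97 in WT and -0.54 in DKO-labelled cells. Those genes were chosen by their WT values, which favours larger values in WT.

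A test of the difference between both changes called 801 of 21450 genes (3.73%), with 282 above 0 and 519 below. The split was 122 above and 498 below with limma-voom, and with scaling to named entries 143 and 447. Leaving out 1 library gave 453 genes (WT day 2 replicate 1), 471 and 467 (DKO day 2 replicates 1 and 2) or 501 (DKO 2i replicate 1). Among the genes with the largest WT changes, Ntrk2, Lef1, Wt1 and Hoxb1 differed. Ntrk2 held 16.5 and 12.8 in DKO-labelled cells at day 2, against 4.24 and 11.1 in DKO-labelled cells in 2i. The fitted difference of its changes was 5.99 (adjusted p = 8.8e-05), a size that depends on the pseudocount, since Ntrk2 had no read in WT 2i. In the same cells Lef1 held 232 and 181 at day 2, against 39.2 and 18.2 in 2i (difference 3.35, adjusted p = 0.00016), and Wt1 held 125 and 103 at day 2, against 12.7 and 12.7 in 2i (3.92, adjusted p = 0.0079). For Prdm14 the difference was -0.25 (adjusted p = 0.55).

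**Figure D5:**
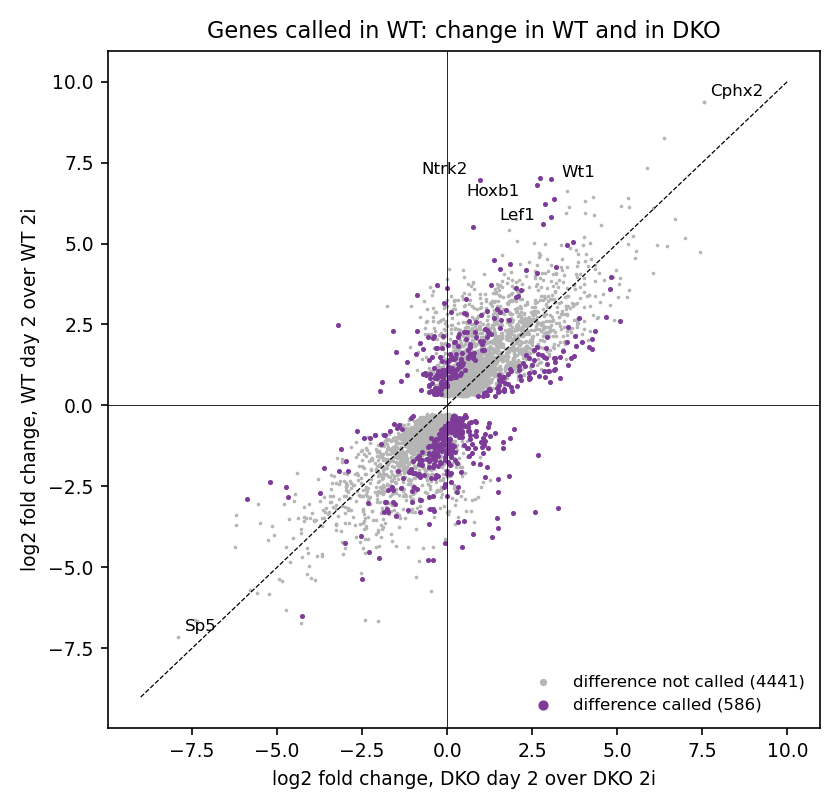
Log2 fold change of day 2 over 2i in WT (vertical) against the same change in DKO-labelled cells (horizontal), for the 5027 genes called in WT. Purple points are genes whose change differed between WT and DKO-labelled cells (adjusted p under 0.05), grey points are the rest, and the dashed line marks equal change. Ntrk2, Wt1, Hoxb1 and Lef1 lie above the line.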

How the data were processed

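RNA-seq of total RNA from mouse embryonic stem cells was deposited as 1 table of 16 libraries in 8 groups of 2. Per the submitters' processing notes, the authors used Trim Galore, HISAT2 and featureCounts with mm10 (GRCm38). Annotation, strand setting and scaling method were not given in the sources used here. As the values show, the authors deposited log2 of normalized read counts plus 4. These were returned to normalized counts, from which whole reads could be recovered in every library (100% within 0.1 read, for values under 1000 reads). Depth was 20696338 to 32710604 reads per library. Of 22122 entries, 667 had no symbol and were left out (7.61% to 11.1% of reads). Intervals, and bounds from a floor of 3 reads per library, cover counting error only.

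Genes that reached a value of 1 in 2 libraries or more were tested on log2(value + 1) with limma 3.58.1 (R 4.3.3, trend), with 8 group means and Benjamini-Hochberg adjustment over all genes at 0.05. Fold changes on this scale understate low genes. All 16 libraries entered the fit and share 1 estimate of spread. The script was tested on simulated data. The table holds log2 values, so the planned count test on deposited counts was not the main test, and limma-voom on recovered reads was an alternative. Other alternatives were 2 pseudocounts, 2 filters, 3 scalings, the 4 libraries alone, a replicate block and leaving out libraries.

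Members and gene lists were chosen with earlier results of these data known. Genes named were 14 fixed ones, the 10 largest rises and the 10 largest falls among called genes with a group mean of at least 100, non-overlapping groups and a given gene name, and, per list, the 3 called members with the smallest adjusted p and a group mean of at least 20, with the strongest in the other direction. Other genes named were chosen after their values were seen. Some genes that the rule names are not reported here. Promoters and motifs were read with Python 3.11.15 from RefSeq sequences. Gene positions and overlaps are those of GENCODE M21.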

Additional observations from a re-analysis of the deposited data

Results flagged for a closer look

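Among the genes with the largest WT changes, 4 reported here had a day 2 change that differed between WT and DKO-labelled cells by the limma interaction term, adjusted over all genes. Values are normalized read counts, and differences are WT minus DKO on the log2 scale. Ntrk2 differed by 5.99 (adjusted p = 8.8e-05), with 124 and 123 in WT at day 2 and 16.5 and 12.8 in DKO-labelled cells at day 2. Lef1 differed by 3.35 (adjusted p = 0.00016), with 709 and 730 in WT at day 2 and 232 and 181 in DKO-labelled cells at day 2. Wt1 differed by 3.92 (adjusted p = 0.0079), with 738 and 730 in WT at day 2 and 125 and 103 in DKO-labelled cells at day 2. Hoxb1 differed by 4.15 (adjusted p = 0.045), with 191 and 173 in WT at day 2 and 5.50 and 14.5 in DKO-labelled cells at day 2. The fitted differences of Ntrk2 and Hoxb1 depend on the pseudocount, since WT 2i libraries held 0 and 2 reads of them. The libraries labelled DKO held more Prdm14 than WT libraries, and the part of that in these differences was not tested.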

How the results depend on the processing

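The number of genes called at day 2 against 2i stayed within 1.5 times of 5027 under all 14 alternatives, from 4299 (limma-voom) to 5175 (pseudocount 4), and from 3442 to 3793 when 1 of the 4 libraries was left out. No called gene turned direction. Scaling without mitochondrial and top 10 genes moved the median of all genes to 0.10 and gave 3085 higher and 1919 lower. The difference between WT and DKO-labelled cells gave 801 genes, 620 with limma-voom, 590 with scaling to named entries, and 453 to 556 when a library was left out, where the cause was not tested. It has no fit on 4 libraries alone. With the replicate number as a block, 5069 genes were called for day 2 against 2i and 785 for the difference. The replicate numbers were not taken to pair libraries, since deviations of same-numbered WT libraries correlated at -0.065 (range over 28 pairs of groups -0.240 to 0.221). Of 1918 values of 137 named called genes, 1870 kept their call, 48 lost it and 0 reversed, and 120 genes kept it throughout. Of 1092 counts of list members, 87 moved by over 1.5 times. With 2 libraries a group, genes of few reads carry wide counting intervals.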

Other observations

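Several genes of no list had large changes with little spread, and were chosen after their values were seen. The Hippo pathway scaffold gene Amot held 1139 and 1094 at day 2, against 38.4 and 32.2 in 2i (log2 4.95, limma adjusted p = 3.0e-12). Myrf, a membrane-bound transcription factor gene, held 2652 and 2519 at day 2, against 142 and 165 in 2i (4.07). The zinc finger gene Zfp423 held 2961 and 2879 at day 2, against 373 and 434 in 2i (2.86), and Foxp1, a forkhead factor gene, held 2270 and 2187 at day 2, against 243 and 242 in 2i (3.20). The actin crosslinker gene Flnc held 1528 and 1493 at day 2, against 115 and 142 in 2i (3.55). Clgn, a chaperone gene best known from testis, held 1279 and 1216 at day 2, against 82.8 and 75.4 in 2i (3.96).

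Secreted factors were among the falls. Pdgfa, the ligand of the receptor encoded by Pdgfra, held 98.5 and 101 at day 2, against 1909 and 1896 in 2i (-4.24), and another gene overlaps 26.1% of its exonic bases. Sfrp1, a secreted Wnt antagonist gene, held 209 and 235 at day 2, against 1726 and 1782 in 2i (-2.98). The genes of both paragraphs were taken from called genes with a group mean of at least 100 and non-overlapping groups. Passing the test and not overlapping are therefore no result for them.

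By annotation class, 2399 of 15102 tested protein-coding genes were higher at day 2 and 1996 lower (29.1% called). Of 612 long intergenic noncoding RNAs, 41 were higher and 32 lower (11.9%). Of 1267 antisense transcripts, 95 were higher and 100 lower (15.4%). The classes were not matched for read level, so these shares do not compare how strongly they responded.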
